A study of Homo sapiens with 8 samples.

Results

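The IFIT and IFITM families are groups of interferon-induced antiviral genes, and 7 of their members were followed here through a pulse of an MPS1 inhibitor in 2 human lung cancer cell lines. The members were IFIT1, IFIT2, IFIT3 and IFIT5 on chromosome 10 and IFITM1, IFITM2 and IFITM3 on chromosome 11, taken by their gene symbols from the count table of each line. All 7 were found, among 46427 listed genes in NCI-H1944 and 61271 in NCI-H647, and all 7 passed the low-count filter, as did 16738 and 15049 genes in all. All 7 transcripts were more abundant after the inhibitor in both lines. The rises ran from 1.66-fold for IFITM2 to 15.9-fold for IFIT1 in NCI-H1944, and from 1.18-fold for IFITM2 to 6.36-fold for IFIT3 in NCI-H647. IFIT1, IFIT2, IFIT3 and IFITM1 rose most in each line, IFIT5 and IFITM3 rose less, and IFITM2 rose least.

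The study asked how gene expression changes when MPS1 is inhibited for a limited time. The 4 groups were wild-type NCI-H1944 given DMSO, wild-type NCI-H1944 given the inhibitor BAY-1217389 (MPS1i) at 100 nM, and the same treatments of wild-type NCI-H647. Drug or DMSO was present for 48 hours and was then removed, and the cells grew for another 24 hours before RNA was taken. Each group held 2 libraries, 8 in all, from cells grown in culture. MPS1 is a kinase of the spindle checkpoint, which holds a dividing cell back until its chromosomes are attached to the spindle, and cells that divide without it missegregate chromosomes.

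IFIT proteins (interferon-induced proteins with tetratricopeptide repeats) are soluble proteins of the cytosol that bind RNA and reduce its translation. IFIT1 binds RNA whose cap lacks the methylation found on host messages, IFIT2 and IFIT3 assemble with it, and IFIT5 binds RNA ends that carry a triphosphate. IFITM proteins (interferon-induced transmembrane proteins) sit in membranes and hinder the fusion of enveloped viruses with the cell, IFITM1 mainly at the cell surface and IFITM2 and IFITM3 mainly in endosomes and lysosomes. Both families are classic targets of interferon: receptor signalling through JAK1 and TYK2 yields ISGF3, a complex that includes STAT2 and IRF9 and binds the interferon-stimulated response element (ISRE) of target promoters. Sensors of double-stranded or triphosphate RNA, such as RIG-I and MDA5, can start this chain through MAVS and can also switch on some of these genes through IRF3 without interferon.

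The NCI-H1944 libraries totalled 38904473 to 43661342 counts each, the NCI-H647 libraries 13358514 to 19550859, and the smallest count of any member in any library was 263, for IFIT2 in NCI-H647. Levels are given as CPM, the counts per 1000000 counts of the library total, as mean ± SD over n = 2 libraries where a group is summarised. A change is the log2 of inhibitor over DMSO with the standard error from edgeR's fit, and p-values were adjusted over all genes tested in that comparison. The 9 epithelial markers summed to between 4133 and 4920 CPM in NCI-H1944 and between 646.8 and 881 CPM in NCI-H647, mainly from the keratins KRT7, KRT8 and KRT18. KRT19, NKX2-1 and SFTPB were at 0 in NCI-H1944, and CDH1, the adhesion protein E-cadherin, had from 3 to 9 counts in NCI-H647. The 5 leukocyte markers summed to between 1.63 and 1.90 CPM after DMSO and 2.22 and 3.13 CPM after the inhibitor in NCI-H1944, and to between 0.972 and 1.16 CPM and 2.43 and 2.55 CPM in NCI-H647. PTPRC, which defines leukocytes, was at 0 in every NCI-H1944 library and had from 1 to 8 counts in NCI-H647. The 3 endothelial markers summed to at most 0.797 CPM after DMSO and 1.92 CPM after the inhibitor in NCI-H1944, and to between 29.3 and 32.1 CPM and 24.5 and 28.4 CPM in NCI-H647, mainly from CDH5, and the 4 fibroblast markers to between 18.995 and 20.2 CPM after DMSO and 27.0 and 28.2 CPM after the inhibitor in NCI-H1944, and to between 31.3 and 34.2 CPM and 24.7 and 24.8 CPM in NCI-H647. The part of these markers in the results below was not tested.

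The 4 IFIT genes lie in a row on the plus strand of chromosome 10 and the 3 IFITM genes side by side on chromosome 11 (GRCh38, coordinates from the NCI-H647 table). IFIT2 (NCBI gene 3433) spans chr10:89283694-89309271, IFIT3 (3437) chr10:89327307-89377473, IFIT1 (3434) chr10:89392546-89406487 and IFIT5 (24138) chr10:89414568-89421605. IFITM2 (10581) spans chr11:303655-309397 and IFITM1 (8519) chr11:310041-315272, both on the plus strand, and IFITM3 (10410) spans chr11:319676-329475 on the minus strand. RefSeq promoter windows (GRCh38.p14) matched 5 of the 7 members, IFIT1, IFIT3, IFIT5, IFITM1 and IFITM3, and IFIT3 has 2 such windows; IFIT2 and IFITM2 had no match. Every window matched to a member is shown, as a description. A link between a motif and the changes of these genes was not tested. Each is printed from base -156 to base 6 around the annotated start, 5′ to 3′ on the gene's own strand, in lower case, with every match to the ISRE core (GAAANNGAAA or its reverse complement) in capitals.
IFIT1, chr10:89392467-89392628, plus strand: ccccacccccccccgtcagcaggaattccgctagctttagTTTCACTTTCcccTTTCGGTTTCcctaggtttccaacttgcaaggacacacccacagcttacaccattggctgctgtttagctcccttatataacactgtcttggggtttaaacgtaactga
IFIT3, first start, chr10:89327841-89328002, plus strand: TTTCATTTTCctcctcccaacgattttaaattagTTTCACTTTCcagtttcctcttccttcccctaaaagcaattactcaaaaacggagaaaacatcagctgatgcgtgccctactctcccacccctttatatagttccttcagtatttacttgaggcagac
IFIT3, second start, chr10:89332373-89332534, plus strand: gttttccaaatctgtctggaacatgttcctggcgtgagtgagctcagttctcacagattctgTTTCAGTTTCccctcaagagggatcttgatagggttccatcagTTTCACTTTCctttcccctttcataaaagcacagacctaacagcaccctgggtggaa
IFIT5, chr10:89414412-89414573, plus strand: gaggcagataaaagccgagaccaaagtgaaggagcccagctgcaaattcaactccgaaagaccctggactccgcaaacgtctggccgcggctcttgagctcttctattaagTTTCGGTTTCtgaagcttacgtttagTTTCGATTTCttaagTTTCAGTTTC
IFITM1, chr11:313884-314045, plus strand: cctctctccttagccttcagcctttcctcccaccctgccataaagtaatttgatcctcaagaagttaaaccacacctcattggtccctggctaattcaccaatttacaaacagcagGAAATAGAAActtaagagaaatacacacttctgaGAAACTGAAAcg
IFITM3, chr11:320855-321016, minus strand: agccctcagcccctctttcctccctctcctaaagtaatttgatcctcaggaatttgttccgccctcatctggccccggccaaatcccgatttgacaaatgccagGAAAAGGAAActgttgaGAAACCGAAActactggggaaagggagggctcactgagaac

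Every one of the 6 windows held the ISRE core at least 2 times, and IFIT5 held it 3 times. Both strands were searched over 250 bases before and 50 after each start, and 1255 of 35116 RefSeq promoters (3.57%) held at least 1 match and 91 (0.259%) at least 2. The IFIT matches all read as the reverse complement on the gene's strand, and the IFITM1 and IFITM3 matches all read in the forward direction. In IFIT1 they lay at -116 to -107 and -103 to -94, and in IFIT3 at -156 to -147 and -122 to -113 for the first start and at -94 to -85 and -51 to -42 for the second. IFIT5 had the matches closest to a start among the IFIT genes, at -45 to -36, -19 to -10 and -4 to 6. IFITM1 had matches at -40 to -31 and -6 to 4, and IFITM3 at -52 to -43 and -35 to -26. The gamma-activated sequence motif TTCNNNGAA was found in IFITM1 alone among these windows, at -12 to -4, where it overlaps the second ISRE core, and it occurs in 7.66% of all promoters. The windows of IFIT1B and IFITM5, which had almost no counts here, held neither motif. A match is a stretch of letters and no binding was measured.

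In NCI-H1944 all 7 members rose at an adjusted p under 0.05, where 26.0% of all genes tested were called and 13.6% were called higher. The median log2 fold change of the 7 was 3.38, beside 0.00 over all genes tested, and 4 of them (IFIT1, IFIT2, IFIT3 and IFITM1) exceeded 2.49, the value that marks the top 1% of genes. At least a 2-fold rise with an adjusted p under 0.05 was seen for 6 of the 7 and for 3.11% of all genes. In NCI-H647 all 7 rose again, where 54.4% of genes were called and 27.3% were called higher. Their median was 2.58, beside 0.01 over all genes, and the same 4 members exceeded the top-1% value of 2.39. At an adjusted p under 0.05, 6 of the 7 rose at least 2-fold, as did 5.602% of all genes. The 2 inhibitor libraries lay above both DMSO libraries for each of the 7 in each line, as the plot of CPM by library shows. Such separation was common, at 28.9% of genes tested in NCI-H1944 and 42.5% of those in NCI-H647. The labels do not say whether replicate libraries came from separate cultures, so these p-values measure the spread between libraries, which may be technical. In bulk RNA a change in the number of expressing cells and a change in RNA per cell cannot be told apart.

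**Figure D1:**
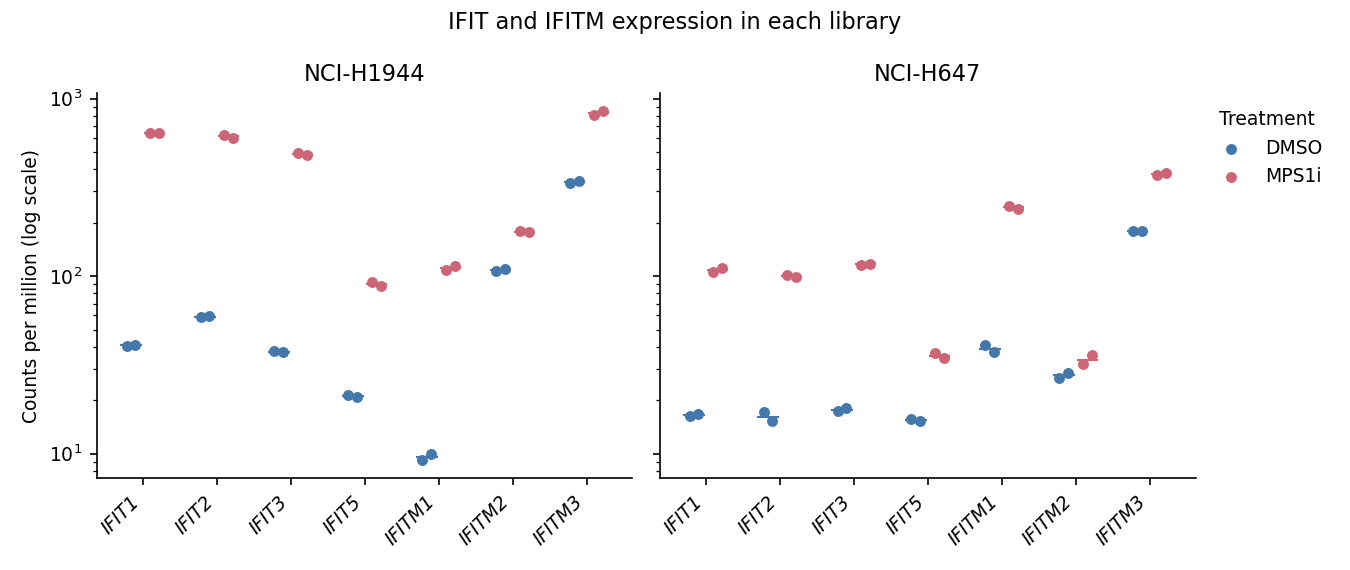
CPM of the 7 members in each library on a log scale, for NCI-H1944 (left) and NCI-H647 (right); points are the 2 libraries of a group, short lines their mean, blue DMSO and red MPS1i. Every pair of MPS1i points lies above its DMSO pair, with the widest gap for IFIT1 in NCI-H1944 (40.8 to 642 CPM) and the narrowest for IFITM2 in NCI-H647 (27.7 to 33.8 CPM).

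IFIT1, the cap-sensing member, had 40.4 and 41.1 CPM in the DMSO libraries of NCI-H1944 and 642 in each inhibitor library. In NCI-H647 it had 16.3 and 16.8 CPM after DMSO and 105 and 111 CPM after the inhibitor. Both control libraries of each line were thus far below both treated ones, and replicates differed by little. Its log2 fold change was 3.99 ± 0.03 in NCI-H1944 (15.9-fold, adjusted p = 1.56e-20), which ranked 65th among the genes tested. The corresponding change in NCI-H647 was 2.66 ± 0.06 (6.30-fold, adjusted p = 2.85e-14), ranked 119th.

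IFIT2, which joins IFIT1 and IFIT3 in a complex, was the highest of the IFIT genes by CPM in untreated NCI-H1944, at 59.1 and 59.3 CPM, and reached 621 and 602 CPM. In NCI-H647 its libraries had 17.1 and 15.3 CPM after DMSO and 102 and 98.2 CPM after the inhibitor. The groups were well apart in both lines. The log2 fold changes were 3.38 ± 0.03 in NCI-H1944 (10.4-fold, adjusted p = 6.45e-20) and 2.58 ± 0.06 in NCI-H647 (5.97-fold, adjusted p = 5.65e-14). IFIT3, known to stabilise IFIT1, had 37.7 and 37.3 CPM after DMSO and 493 and 482 CPM after the inhibitor in NCI-H1944. In NCI-H647 IFIT3 went from 17.3 and 18.04 CPM to 116 and 117 CPM. Here too no library of one treatment came near the other. IFIT3 rose by 3.71 ± 0.04 in NCI-H1944 (13.1-fold, adjusted p = 6.45e-20) and by 2.67 ± 0.06 in NCI-H647 (6.36-fold, adjusted p = 1.60e-14). In NCI-H647 the changes of IFIT1, IFIT2 and IFIT3 lay about as close together as their standard errors, whereas in NCI-H1944 each was many standard errors from the next.

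IFIT5, the member that acts mostly on its own, moved least of the IFIT genes. Its NCI-H1944 libraries had 21.3 and 20.9 CPM after DMSO and 92.8 and 87.5 CPM after the inhibitor. Its NCI-H647 libraries had 15.7 and 15.3 CPM without and 36.9 and 34.4 CPM with the inhibitor. The treatments did not overlap, but the gap was narrower than for the other three. The log2 fold change was 2.11 ± 0.05 in NCI-H1944 (4.30-fold, adjusted p = 1.30e-14) and 1.15 ± 0.07 in NCI-H647 (2.22-fold, adjusted p = 3.68e-09). IFIT5 therefore took a smaller share of the family's counts in treated libraries, 4.92% ± 0.14 after the inhibitor and 13.3% ± 0.17 after DMSO in NCI-H1944, and 9.91% ± 0.52 and 23.5% ± 0.16 in NCI-H647 (SD, n = 2). IFIT1 had 25.7% ± 0.29 of the counts after DMSO and 35.1% ± 0.47 after the inhibitor in NCI-H1944, and 25.1% ± 0.81 and 30.0% ± 1.16 in NCI-H647. IFIT2 had the largest share in untreated NCI-H1944, 37.3% ± 0.07, and 33.4% ± 0.27 after the inhibitor.

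IFITM1, the cell-surface member, stood apart from its neighbours in the size of its rise. In NCI-H1944 it was the least abundant of the 7 by CPM after DMSO, with 9.18 and 9.90 CPM, and had 109 and 114 CPM after the inhibitor. In NCI-H647 it had 40.9 and 37.2 CPM after DMSO and 248.8 and 238 CPM after the inhibitor. Both treated libraries were several times above both controls in each line. The log2 fold change was 3.56 ± 0.06 in NCI-H1944 (11.8-fold, adjusted p = 5.33e-17) and 2.59 ± 0.05 in NCI-H647 (6.02-fold, adjusted p = 1.46e-14), in the range of IFIT1, IFIT2 and IFIT3 and above that of IFITM2 and IFITM3.

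IFITM3, the endosomal member best known for restricting influenza virus, was the most abundant of the 7 in every group. It had 332 and 344 CPM after DMSO and 804 and 851 CPM after the inhibitor in NCI-H1944, and 179 CPM in both controls and 373 and 383 CPM in both treated libraries of NCI-H647. The groups did not overlap in either line. IFITM3 rose by 1.30 ± 0.03 in NCI-H1944 (2.47-fold, adjusted p = 5.81e-15) and by 1.03 ± 0.04 in NCI-H647 (2.04-fold, adjusted p = 4.25e-12).

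IFITM2, the other endosomal member, changed least in both lines. Its NCI-H1944 libraries had 106 and 110 CPM after DMSO and 179 and 176 CPM after the inhibitor, with a log2 fold change of 0.73 ± 0.04 (1.66-fold, adjusted p = 1.94e-10). In NCI-H647 the 4 values were close, at 26.8 and 28.5 CPM after DMSO and 31.9 and 35.8 CPM after the inhibitor. The change there was 0.24 ± 0.07 (1.18-fold, adjusted p = 0.00796), and this call rested on single libraries. With the first DMSO library left out it was 0.19 (adjusted p = 0.0563), and with the second inhibitor library left out 0.15 (adjusted p = 0.144). The call was lost also with DESeq2 (0.24, adjusted p = 0.132) and with no filter on low counts (0.22, adjusted p = 0.0656), in each case with 6 of 7 members still called.

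**Figure D2:**
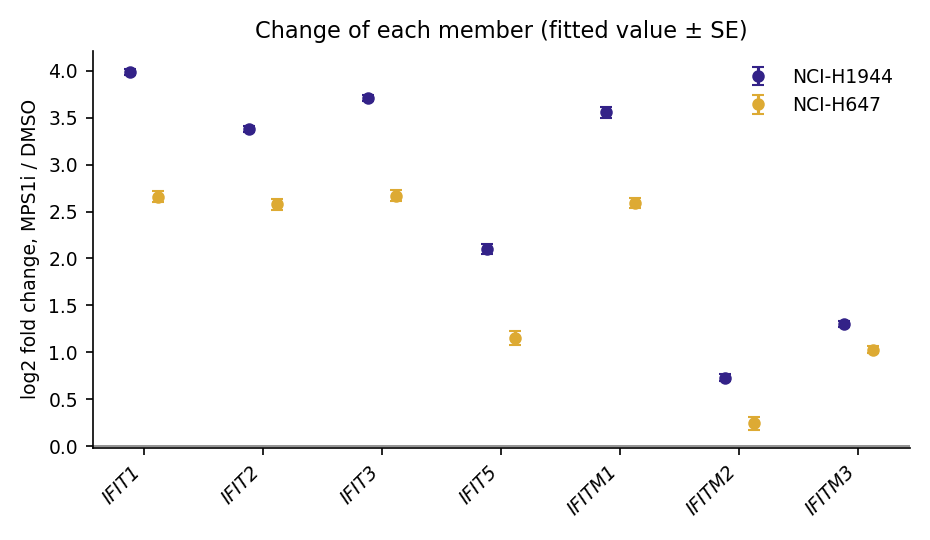
Log2 fold change of each member, MPS1i over DMSO, with its standard error (bars) in NCI-H1944 (dark) and NCI-H647 (yellow). In both lines IFIT1, IFIT2, IFIT3 and IFITM1 are the 4 highest and IFITM2 the lowest, and each NCI-H1944 point lies above the NCI-H647 point of the same gene.

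The response was larger in NCI-H1944 for each of the 7 members. In the joint fit of all 8 libraries over 12887 genes shared by the tables, the interaction of line and treatment passed the threshold for all 7, where 40.1% of genes were called and 22.7% were called with the larger change in NCI-H1944. The difference between the lines, as log2 fold change in NCI-H1944 minus that in NCI-H647, was largest for IFIT1, at 1.35 ± 0.07 (adjusted p = 1.28e-12). It was 1.06 ± 0.07 for IFIT3 (adjusted p = 2.97e-11), 0.98 ± 0.10 for IFIT5 (adjusted p = 5.61e-08) and 0.83 ± 0.07 for IFIT2 (adjusted p = 7.23e-09). Among the IFITM genes it was 0.99 ± 0.08 for IFITM1 (adjusted p = 1.94e-09), 0.51 ± 0.08 for IFITM2 (adjusted p = 1.82e-05) and 0.30 ± 0.05 for IFITM3 (adjusted p = 3.63e-05). The median difference over all genes was 0.04. The lines were prepared with different kits and sequenced to different depths, so line and kit cannot be told apart in levels, and a kit effect that differs between treated and control cells was not tested.

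The families gave different pictures when their counts were summed. The 4 IFIT genes together had 159 ± 0.05 CPM after DMSO and 1831 ± 25 CPM after the inhibitor in NCI-H1944, and 65.9 ± 0.73 and 359.9 ± 0.50 CPM in NCI-H647. Fitted as 1 gene they rose by 3.54 ± 0.02 in NCI-H1944 (11.6-fold) and 2.40 ± 0.04 in NCI-H647 (5.28-fold), and the difference between the lines was 1.16 ± 0.05 (adjusted p = 1.87e-14). The 3 IFITM genes together had 456 ± 12 CPM after DMSO and 1117 ± 35 CPM after the inhibitor in NCI-H1944, and 246 ± 1.4 and 655 ± 2.4 CPM in NCI-H647. As 1 gene they rose by 1.30 ± 0.03 (2.47-fold) and by 1.36 ± 0.03 (2.57-fold), and the difference between the lines was -0.04 ± 0.05 (adjusted p = 0.559). So each IFITM gene had the larger rise in NCI-H1944 while the family's summed rise did not differ beyond its error.

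The make-up of the IFITM family by line went with this. IFITM1, the steepest riser, held 2.09% ± 0.06 of the family's counts in untreated NCI-H1944 and 9.98% ± 0.03 after the inhibitor, but 15.9% ± 0.98 and 37.2% ± 1.29 in NCI-H647. IFITM3 held 74.2% ± 0.09 and 74.1% ± 0.64 of them in NCI-H1944, and 72.9% ± 0.42 and 57.7% ± 0.88 in NCI-H647. IFITM2 held 23.7% ± 0.03 and 15.9% ± 0.67 in NCI-H1944, and 11.2% ± 0.56 and 5.16% ± 0.41 in NCI-H647. These are shares of counts within a library, so they carry no scaling between libraries, but line and kit cannot be told apart in them.

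**Figure D3:**
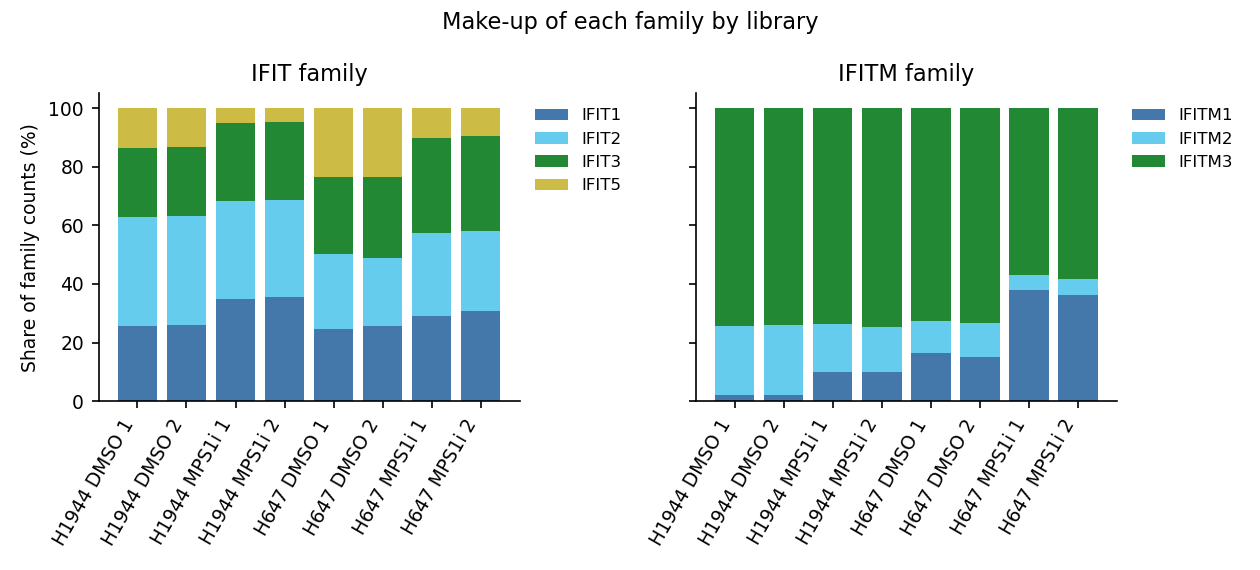
Share of the family's counts, in percent, held by each IFIT gene (left) and each IFITM gene (right) in each of the 8 libraries. The IFIT5 share is smaller in all treated libraries (4.92% in NCI-H1944 and 9.91% in NCI-H647 on average), and IFITM1 makes up 37.2% of the IFITM counts in treated NCI-H647 and 9.98% in treated NCI-H1944.

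Levels of different genes were compared per kilobase of the longest matching reference transcript (CPM per kb). After DMSO in NCI-H1944, IFITM3 was highest at 419 ± 10 CPM per kb, followed by IFITM2 at 164 ± 4.5, IFIT2 at 17.0 ± 0.04, IFIT3 at 15.03 ± 0.12, IFITM1 at 11.2 ± 0.59, IFIT1 at 8.84 ± 0.10 and IFIT5 at 5.26 ± 0.07. After the inhibitor the order was IFITM3 at 1024 ± 41, IFITM2 at 270 ± 3.0, IFIT3 at 195 ± 3.2, IFIT2 at 175 ± 3.8, IFIT1 at 139 ± 0.04, IFITM1 at 130 ± 4.4 and IFIT5 at 22.4 ± 0.93. No neighbours in either order had overlapping libraries. IFIT1 has a second, shorter reference transcript of 1880 nt against 4613 nt, and on that length it would stand at 21.7 and 341 CPM per kb, above IFIT2 after DMSO and second only to IFITM3 after the inhibitor.

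NCI-H647 had a different order. After DMSO, IFITM3 was at 222 CPM per kb in both libraries, followed by IFITM1 at 45.7 ± 3.1, IFITM2 at 42.0 ± 1.9, IFIT3 at 7.09 ± 0.20, IFIT2 at 4.63 ± 0.37, IFIT5 at 3.86 ± 0.07 and IFIT1 at 3.59 ± 0.08. IFITM1 and IFITM2 were as close as their spread. After the inhibitor, IFITM3 was at 468 ± 8.9 CPM per kb, IFITM1 at 285 ± 8.9, IFITM2 at 51.3 ± 4.2, IFIT3 at 46.6 ± 0.23, IFIT2 at 28.7 ± 0.73, IFIT1 at 23.4 ± 0.93 and IFIT5 at 8.88 ± 0.45. IFITM2 and IFIT3 were then separated by about the spread of IFITM2. On its shorter transcript IFIT1 would stand at 8.81 and 57.4 CPM per kb.

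Reads shared between members could move counts among them. No stretch of 50 nt in the reference transcript of an IFIT member occurred in another member, and 38 of the 4564 such stretches of IFIT1 (0.833%) occurred in IFIT1B, which had 6 counts in 1 library and none in the rest. Among the reference transcripts of the IFITM members, 98 of the 806 stretches of IFITM1 (12.2%), 51 of 610 of IFITM2 (8.36%) and 99 of 759 of IFITM3 (13.04%) occurred in another IFITM member. At 100 nt this was 5.56% for IFITM1, 0% for IFITM2 and 5.92% for IFITM3. Against every annotated transcript of the other members, the shares at 50 nt were 42.3% for IFITM1 (39.0% with IFITM2), 8.36% for IFITM2 and 17.9% for IFITM3, and at 100 nt 37.7% for IFITM1, 0% for IFITM2 and 5.92% for IFITM3. How the authors' counting treated such reads is not given in the sources used here, so values of the IFITM genes carry this uncertainty. The NCI-H647 table also lists a readthrough gene that spans IFITM2 and IFITM1, with 30 and 18 counts in the DMSO libraries and 0 and 114 in the inhibitor libraries. With these counts added, IFITM2 changed by 0.35 (adjusted p = 0.0112) and IFITM1 by 2.57 in that line. LIPA, the lysosomal acid lipase gene, overlaps IFIT1, IFIT2 and IFIT3 on the opposite strand in that table, with 771 to 894 counts, and whether strand was used in counting is not given.

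Of 4 other genes of the families, 3 were nearly silent. IFITM5, a bone protein, had no count in any of the 8 libraries, and IFIT1B and the pseudogene IFITM4P had at most 6 counts in any library. IFITM10, a distant relative, went from 511 and 493 counts to 823 and 938 in NCI-H1944, a rise of 0.67 ± 0.09 (adjusted p = 3.33e-05), and 20, 14, 16 and 12 counts in NCI-H647 (0.12 ± 0.37, adjusted p = 0.802). The difference of IFITM10 between the lines, 0.57 ± 0.37, did not pass (adjusted p = 0.229).

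**Figure D4:**
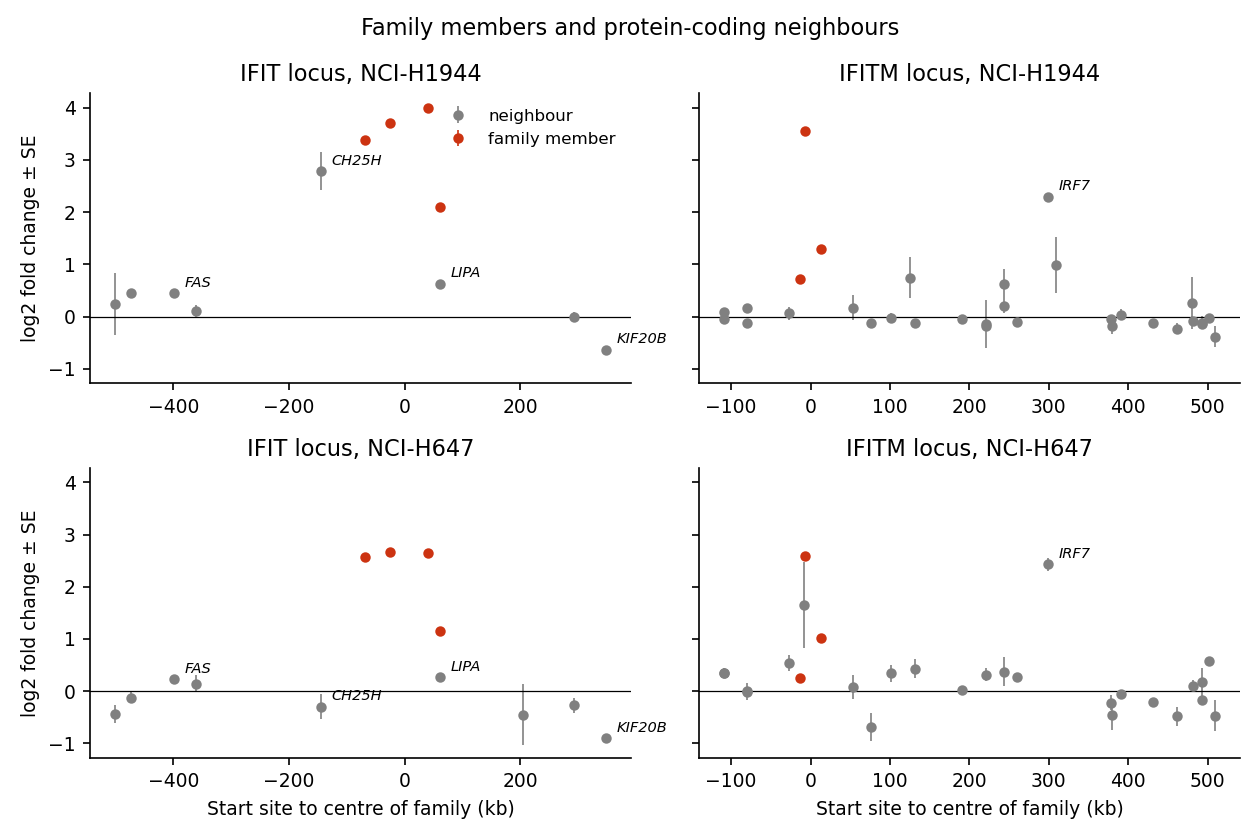
Log2 fold change ± SE of family members (red) and of all other protein-coding genes tested (grey) within 500 kb of a member, by the distance in kb of the start site from the centre of the family, for the IFIT locus (left) and the IFITM locus (right) in NCI-H1944 (top) and NCI-H647 (bottom). IFIT1, IFIT2, IFIT3 and IFITM1 are above every neighbour in both lines. CH25H in NCI-H1944 (2.79) is above IFIT5, and IRF7 in both lines (2.30 and 2.43) is above IFITM2 and IFITM3. Further neighbours lie above IFITM2 in each line, such as CDHR5 in NCI-H1944 (0.99, not called) and PNPLA2 in NCI-H647 (0.57). The readthrough gene in NCI-H647 (1.65, not called) is above both IFITM2 and IFITM3.

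Neighbours of the IFIT genes changed less than IFIT1, IFIT2 and IFIT3 did. Within 500 kb, 11 other protein-coding genes lay around the IFIT locus, and of the 8 tested in NCI-H1944, 4 rose and 1 fell, with a median log2 fold change of 0.35. In NCI-H647 2 of 9 rose and 2 fell, with a median of -0.27. CH25H, which makes an antiviral oxysterol and lies beside this cluster, rose by 2.79 ± 0.36 in NCI-H1944 (adjusted p = 2.38e-05) and had -0.30 ± 0.23 in NCI-H647 (adjusted p = 0.305). LIPA, whose gene body overlaps the cluster, rose by 0.63 ± 0.04 and 0.27 ± 0.05, and KIF20B, a mitotic kinesin, fell by 0.63 and 0.90. Around the IFITM locus, 2 of 29 neighbours tested rose and 2 fell in NCI-H1944 (median -0.05), and 7 of 25 rose and 4 fell in NCI-H647 (median 0.10). The 25 include the readthrough gene over IFITM2 and IFITM1, which was not called (1.65 ± 0.83). Among all genes tested, 26.0% were called and 13.6% called higher in NCI-H1944, and 54.4% and 27.3% in NCI-H647. The counts of neighbours at both loci are to be read beside these shares. IRF7, a transcription factor that amplifies interferon induction, was the neighbour with the highest change in both lines, 2.30 ± 0.05 and 2.43 ± 0.12, and lies about 299 kb from the family's centre.

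Of 23 genes of the chain that induces these families, its negative regulators included, 18 rose, 1 fell and 4 were not called in NCI-H1944. Among all genes tested in that line, 26.0% were called and 13.6% were called higher. The 18 include 4 interferons and the negative regulator SOCS1, which had from 0 to 10 counts in each control. These genes needed the treated libraries to pass the low-count filter, so their calls carry little weight. The median log2 fold change of the 23 was 1.48. It counts the 4 interferons and SOCS1, all of which lie above it, so the median is raised by them and carries the same limit. In NCI-H647, 19 passed the filter, of which 15 rose, 1 fell and 3 were not called, with a median of 1.33. Among all genes tested in NCI-H647, 54.4% were called and 27.3% were called higher. The 15 include IFNLR1 and SOCS1, which had from 2 to 7 counts in the controls and passed the filter only through the treated libraries. Both lie above the median of 1.33, which carries the same limit. The RNA sensors rose in both lines, RIG-I (RIGI, listed as DDX58) by 3.14 ± 0.04 in NCI-H1944 and 1.72 ± 0.06 in NCI-H647, and MDA5 (IFIH1) by 3.04 ± 0.05 and 2.12 ± 0.06. Their adaptor MAVS fell by 0.28 and 0.41. IRF3, the factor activated downstream of MAVS, was not called in either line (0.07 ± 0.05 and 0.11 ± 0.07, adjusted p = 0.427 and 0.235).

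Interferon transcripts were counted in treated NCI-H1944 and hardly at all in NCI-H647. IFNB1 was at 0 in both DMSO libraries of NCI-H1944 and had 26 and 22 counts in its inhibitor libraries. The type III interferons IFNL1, IFNL2 and IFNL3 had from 0 to 9 counts in those controls and from 202 to 309 in those treated libraries. All 4 interferons passed the low-count filter only through the treated libraries. Their being called higher in NCI-H1944 was therefore close to fixed in advance, and the counts are given as description. In NCI-H647 none of the 4 had more than 2 counts in any library and none passed the filter, so the difference between the lines was not tested for them. The NCI-H647 libraries were also shallower, so a level near the floor of detection in that line is less certain.

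Of the receptor chains, IFNAR2 was higher by 0.24 ± 0.06 in NCI-H1944 and 0.17 ± 0.06 in NCI-H647, IFNAR1 was called only in NCI-H647 (0.30 ± 0.05, with 0.05 ± 0.05 in NCI-H1944), and the difference of -0.23 ± 0.07 passed the interaction test (adjusted p = 0.0185). IFNLR1, the type III chain, had 121 and 114 counts in the controls and 189 and 230 in the treated libraries of NCI-H1944, and 5 and 2 against 15 and 15 in NCI-H647. IFNLR1 rose by 0.70 ± 0.17 in NCI-H1944 (1.62-fold, adjusted p = 0.00619). In NCI-H647 its controls were near the floor, and it passed the low-count filter there only through the treated libraries. The fitted change of 2.46 ± 0.49 in NCI-H647 and the difference of -1.76 ± 0.59 between the lines rest on those few counts. They are therefore not set against the values of the 7 members. Of the ISGF3 subunits, STAT2 rose by 1.85 ± 0.04 and 1.45 ± 0.05 and IRF9 by 0.97 ± 0.04 and 1.33 ± 0.08. STAT2 had the larger rise in NCI-H1944 (difference 0.42 ± 0.06, adjusted p = 9.99e-06), as the 7 members did, and IRF9 had the larger rise in NCI-H647 (-0.34 ± 0.10, adjusted p = 0.00889). USP18, which shuts off the type I receptor, rose by 3.71 ± 0.05 (13.1-fold) in NCI-H1944 and 3.01 ± 0.13 (8.06-fold) in NCI-H647.

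Of 7 proteins known to bind or modify the families, 2 rose, 2 fell and 3 were not called in NCI-H1944, and 2 rose, 4 fell and 1 was not called in NCI-H647, with medians of -0.09 and -0.20, where 26.0% and 54.4% of all genes were called. STING1, the adaptor of DNA sensing that IFIT proteins can bind, rose in both lines, by 1.01 ± 0.08 in NCI-H1944 (2.01-fold) and 0.27 ± 0.06 in NCI-H647 (1.21-fold), with a difference of 0.76 ± 0.10 (adjusted p = 1.39e-06). EIF3E, the initiation factor subunit bound by IFIT1, fell by 0.25 and 0.62, and EIF3C, bound by IFIT2, had -0.09 ± 0.03 in NCI-H1944 (adjusted p = 0.0625) and fell by 0.44 in NCI-H647. NEDD4, a ubiquitin ligase for IFITM3, rose by 0.25 ± 0.06 in NCI-H1944 and had 0.02 ± 0.05 in NCI-H647 (adjusted p = 0.802). VAPA, a membrane contact protein bound by IFITM3, fell by 0.15 and 0.25. ZDHHC20, which palmitoylates IFITM3, had -0.09 ± 0.05 in NCI-H1944 (adjusted p = 0.261) and fell by 0.20 in NCI-H647. ZMPSTE24, a membrane protease that works with IFITM proteins, had 0.08 ± 0.04 in NCI-H1944 (adjusted p = 0.154) and rose by 0.52 ± 0.05 in NCI-H647.

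The genes with the profile most like each family's mean were found by the Euclidean distance between log2 CPM profiles over the 8 libraries, each set against the mean of the DMSO libraries of its line, among 10967 candidates. Nearest to the IFIT mean were IFI44L (distance 0.181), BATF2 (0.312), IFIH1 (0.430), HELZ2 (0.465) and SAMHD1 (0.478), against a median distance of 5.68 over all candidates. Among the IFIT genes themselves IFIT2 lay nearest (0.475), followed by IFIT3 (0.820), IFIT1 (1.13) and IFIT5 (2.31). Nearest to the IFITM mean were TDRD7 (0.202), DDX60 (0.250), STAT2 (0.275), APOL1 (0.299) and EIF2AK2 (0.334), against a median of 3.24. The IFITM genes lay farther from their own mean than these 5, at 0.871 for IFITM3, 2.19 for IFITM2 and 3.02 for IFITM1, so that mean describes none of its 3 genes closely. The points share libraries, depth and kit within a line, and the distance is a description.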

How the data were processed

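RNA-seq counts of 8 libraries were used. Per the labels' protocols, NCI-H1944 libraries came from a stranded poly(A) mRNA kit and NCI-H647 libraries from a stranded kit after ribosomal RNA depletion, with conversion for an MGI sequencer. The authors deposited raw counts per gene, 1 table per line. Tools listed in the submitters' processing notes are STAR, HISAT2, featureCounts, StringTie, cutadapt, Trimmomatic and Trim Galore, with GRCh38. Not given in the sources used here are versions, which tools made which table, annotation release and strand setting. Groups came from sample titles.

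Each line was fitted on its whole table with edgeR 4.0.16 (R 4.3.3): filterByExpr (minimum count 10, minimum total 15), TMM factors, and the quasi-likelihood F test, two-sided, with Benjamini-Hochberg adjustment over all genes tested and a threshold of 0.05. The line difference was the interaction term over symbols that passed in both lines. The fits were tested on simulated data. Printed CPM is the count over the library total. Lengths came from GENCODE 29 transcripts that match RefSeq entries, and promoters from RefSeq (GRCh38.p14). Profiles used log2 CPM with a prior count of 2 and genes whose mean log2 CPM reached 1 in each line.

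Named were all 7 members, 4 other family genes, 23 pathway genes, 7 partners, neighbours within 500 kb, the 5 nearest profiles per family, and markers; of these the text gives examples, and some are not reported here. Members and lists were chosen with earlier results of these data known. Alternatives were DESeq2 1.42.0, RLE factors, no filter, a 1.5-fold minimum, a replicate block and leaving out each library; summed families in the fold changes were another. Library totals, summed families in the interaction and added readthrough counts were chosen after seeing the data.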

Additional observations from a re-analysis of the deposited data

Results flagged for a closer look

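The response of each member differed between the lines by the interaction test, and each was larger in NCI-H1944. Among all 12887 genes in that test, 40.1% were called and 22.7% were called with the larger change in NCI-H1944. The log2 difference (NCI-H1944 minus NCI-H647) was 1.35 for IFIT1, 0.83 for IFIT2, 1.06 for IFIT3 and 0.98 for IFIT5. It was 0.99 for IFITM1, 0.51 for IFITM2 and 0.30 for IFITM3. With the 3 IFITM genes summed the difference was -0.04, and with the 4 IFIT genes summed it was 1.16.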

How the results depend on the processing

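Across 21 values (the change of each member in each line and its difference between the lines), 246 of 254 alternative values kept their direction and their side of the threshold. For each of the 21, 1 alternative is the value of its whole family summed, which does not test that member alone. The sum of 1.36, for example, counts as kept for IFITM2 in NCI-H647, whose own change was 0.24. The tally is therefore higher than it would be without the sums. Of the other 8, 5 are the change of IFITM2 in NCI-H647, which kept its direction but lost its call with no filter on low counts, with DESeq2, against a minimum of 1.5-fold (0.24, adjusted p = 1), without DMSO replicate 1 and without MPS1i replicate 2, with values from 0.15 to 0.32 over the leave-outs. The cause was not tested. The remaining 3 are 1 value, the line difference of the 3 IFITM genes summed (-0.037, adjusted p = 0.559), entered for each of IFITM1, IFITM2 and IFITM3. The differences of the single genes stayed positive under every other alternative. All 7 members were called in NCI-H1944 under every alternative run. Genes called in NCI-H1944 numbered 4346, with 2325 under no low-count filter and 427 against a minimum of 1.5-fold. In NCI-H647 they numbered 8184, with 5446 by DESeq2 and 1256 against 1.5-fold. With the replicate number as a block (replicate block), 4817 and 8434 genes and all 7 members were called in NCI-H1944 and NCI-H647, and all 7 interactions held; the deviations of same-numbered libraries correlated at 0.044 and 0.00257, so the numbers were not taken as a pairing. Choosing among entries of a repeated symbol gave no alternative value, since no member symbol was repeated. Scaling by RLE factors or library totals reversed no member; the median change of all genes moved by less than 0.1. With 2 libraries per group and lower depth in NCI-H647, small changes such as that of IFITM2 there are the least certain.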
